A study of Homo sapiens with 6 samples.

Results

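The genes of fatty acid oxidation, ketone metabolism and the peroxisome were followed in Huh7, a long-established line from a human hepatocellular carcinoma, after knockdown of ITGB5, the integrin beta 5 subunit. The members were 40 genes chosen by symbol out of 58735 genes in the deposited count table. Earlier results of these data were known when they were chosen. All 40 were found by symbol. They were divided by where the encoded protein acts: 22 in mitochondria, 13 in peroxisomes, 2 in both organelles (ECI2 and CRAT) and 3 in neither (the nuclear receptor PPARA, the cytosolic carrier FABP1 and the cytosolic thioesterase ACOT1). RNA-seq libraries had been made from 3 samples with a short hairpin RNA against ITGB5 (called shITGB5 here) and from 3 samples with a control hairpin. Both groups were the same cell line grown in RPMI-1640 medium with fetal bovine serum, and no drug, time point or other treatment is given for either. The labels state neither the hairpin sequences nor the number of hairpins, clones or cultures, and a p-value here rests on the scatter among 3 libraries a group, whether technical or biological. The table names its columns S and NC, which were read as the ITGB5 hairpin and the control.

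Fatty acids are broken down by beta-oxidation, a cycle of dehydrogenation, hydration, dehydrogenation and thiolytic cleavage that shortens the acyl chain and releases acetyl-CoA. Mitochondria take up long-chain acyl groups through the carnitine shuttle and pass the electrons to the respiratory chain, whereas peroxisomes start on very long and branched chains with oxidases that make hydrogen peroxide. In hepatocytes part of the acetyl-CoA becomes ketone bodies for export, and the receptor PPARA is a known activator of many genes of both organelles. Hepatoma lines keep part of this hepatocyte programme.

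Library totals ran from 15777922 to 18011313 counts, and 39 of the 40 members passed the filter on low counts. The ketone body dehydrogenase BDH1 did not pass it. ITGB5 itself checks the labels: it lay at 205, 214 and 217 CPM (counts per 1000000 counts of the TMM-scaled library) in the controls and at 173, 181 and 174 CPM in the shITGB5 libraries, so that the groups did not overlap. It fell by 16.8% (95% interval of the change -20.4% to -13.1%, edgeR quasi-likelihood test, Benjamini-Hochberg adjusted p = 2.85e-11), and the exact two-sided permutation test of 3 libraries against 3 gave p = 0.1, the smallest that this design allows. The hepatocyte label was checked against 11 marker genes, all of them detected. Their summed level was 6922 to 7083 CPM in the controls and 7839 to 8019 CPM in the shITGB5 libraries, and 8 of the 11 rose. Transcripts of the mitochondrial genome summed to 30868 to 31646 CPM in the controls and 28770 to 29132 CPM in the shITGB5 libraries, and 8 of 13 fell. Of 7 fibroblast markers 5 passed the filter and 1 rose. The 7 summed to 290 to 303 CPM in the controls and 324 to 333 CPM in the shITGB5 libraries, mostly from COL1A2 and LUM. DCN and ACTA2 had at most 10 counts in any library and were not tested. Of 4 endothelial markers only PECAM1 passed the filter, and it was not called (edgeR). KDR had no count, VWF and CDH5 had at most 3, and the list summed to at most 5.63 CPM in any library. Of 5 blood and immune markers only CD14 and LYZ passed the filter, and neither was called. PTPRC, CD68 and CD3E had at most 5 counts. The list, carried by CD14 and LYZ, summed to 37.4 to 37.8 CPM in the controls and 40.4 to 42.8 CPM in the shITGB5 libraries. The part of these marker levels in the results below was not tested. In bulk RNA, fewer cells of a type and less RNA per cell cannot be told apart.

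Of the 39 members tested, 8 rose, none fell and 31 did not pass the test (edgeR, Benjamini-Hochberg adjusted p under 0.05 over 16577 genes). The 8 were FABP1, ECI1, ETFB, ACAT1, DECR2, CPT1A, ACAA1 and SCP2. Over all genes tested, 15.5% were called, 8.54% as higher and 6.96% as lower (10.3% and 8.07% of the protein-coding genes). The members' share of rises was 20.5% and their share of falls 0, where 3 of 39 were lower at an unadjusted p under 0.05 and DESeq2 also called 0. The members were also more abundant than the genes they are set beside. Their median control level was 9.36 FPKM (CPM per kilobase of exon), beside 4.11 for all genes tested and 5.64 for protein-coding genes. The part of level in these shares was not tested. All 3 shITGB5 libraries lay above all 3 controls for 11 members and below them for 3, beside 14.7% and 13.8% of all genes tested. The median log2 change of the members was 0.06, beside 0.00 for all genes tested, and 27 of 39 lay above 0. All of these differences were small: among the 35 members at 10 CPM or more in the controls, changes ran from -8.85% (ACADM) to 29.5% (FABP1). The SD between libraries of a group was typically 3.17% of the mean in the controls and 4.38% in the shITGB5 group for those 35. Against a minimum fold of 1.2 no member passed edgeR's test, and 2 (FABP1 and ACOX2) had an unadjusted p under 0.05.

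Mitochondrial and peroxisomal members gave similar counts. Of the 21 mitochondrial members tested, 4 rose, 17 did not pass and the median log2 change was 0.05. Of the 13 peroxisomal members, 3 rose, 10 did not pass and the median was 0.10. Summed over the 22 mitochondrial members, levels were 1551, 1530.4 and 1528 CPM in the controls and 1585, 1569 and 1583 CPM in the shITGB5 libraries. For the 13 peroxisomal members the sums were 1022, 1036 and 1027 CPM in the controls and 1073, 1064 and 1081 CPM in the shITGB5 libraries. In both organelles the sums of the groups did not overlap. The sums hold the members that rose, among them ECI1 (mean 83.8 CPM in the controls, 102 CPM in shITGB5) and ACAA1 (189 and 214 CPM). They therefore do not show a shift of the other members. The difference between the organelles was not tested.

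**Figure D1:**
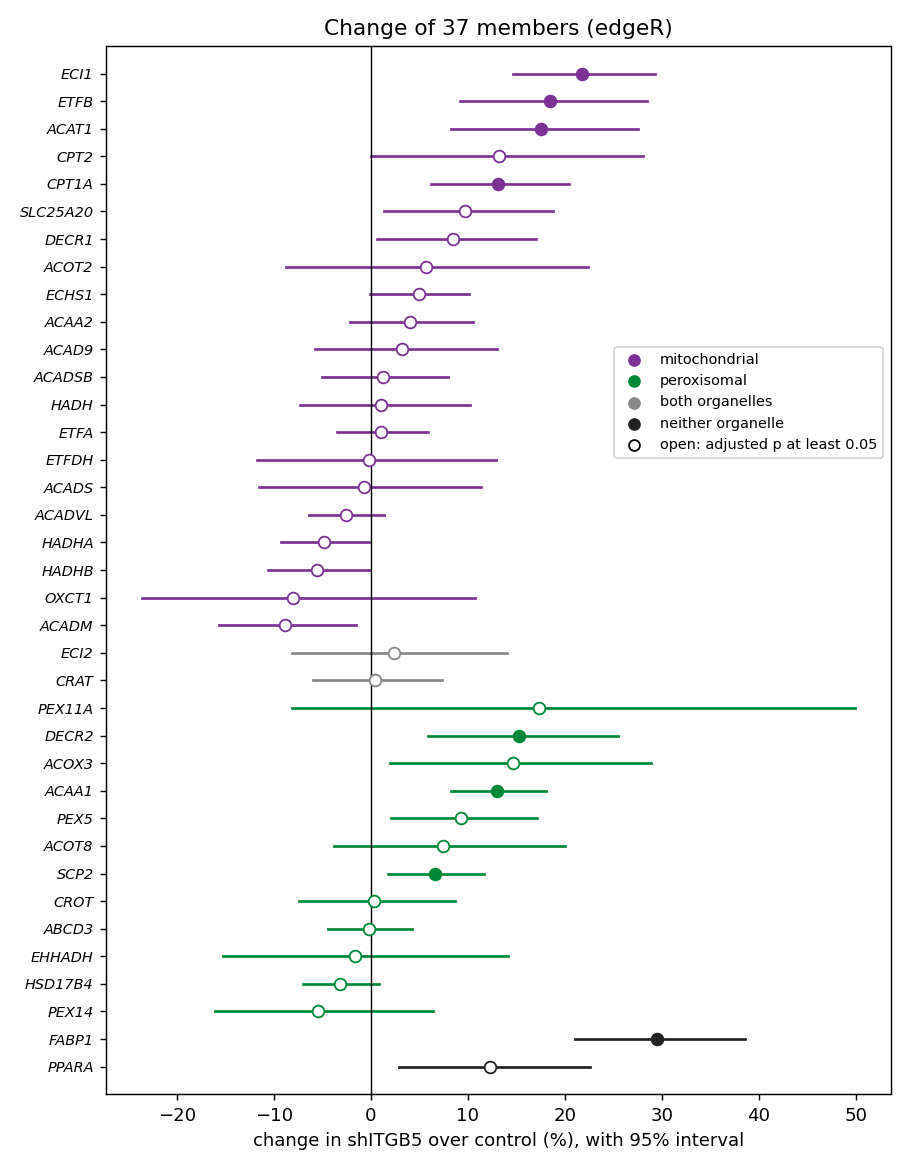
Change of 37 members in percent (x axis) with the 95% interval of the edgeR fit, grouped by organelle (colour); filled points had an adjusted p under 0.05. The 8 filled points all lie to the right of 0, with FABP1 farthest at 29.5%; ACOX2 and ACOT1, with few counts, and the untested BDH1 are left out.

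**Figure D2:**
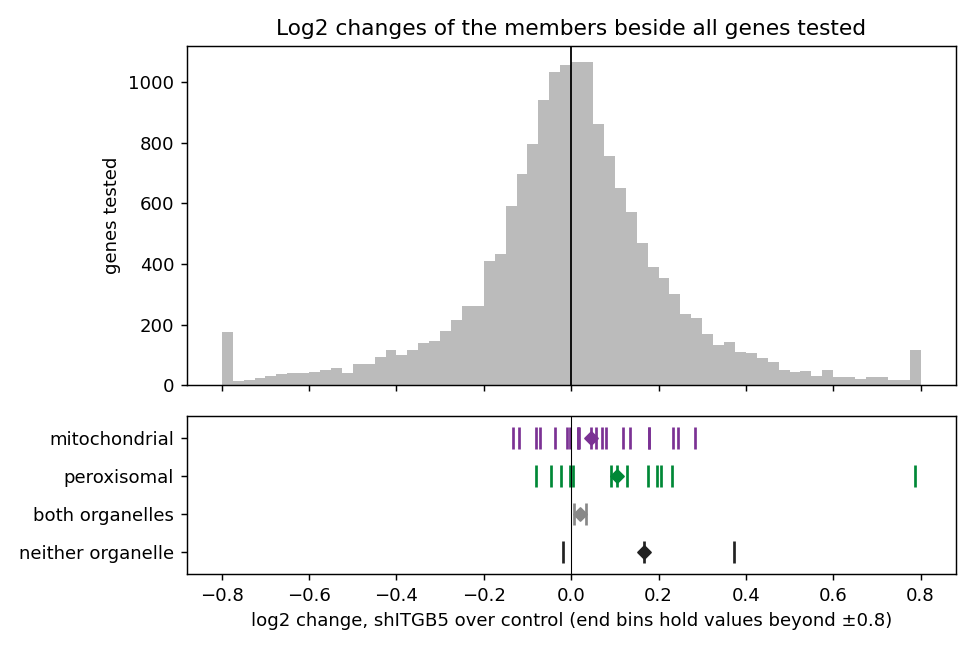
Log2 changes of the 16577 genes tested (histogram, y axis in genes) above those of the 39 members, 1 tick per member and a diamond at the median of each row; the end bins hold values beyond the axis. The medians of the 21 mitochondrial and 13 peroxisomal members lie at 0.05 and 0.10, beside 0.00 for all genes, and the tick farthest to the right is ACOX2, which did not pass the test.

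The largest rise that passed the test was that of FABP1, the liver fatty acid binding protein, which carries fatty acids through the hepatocyte cytosol and is a textbook target of PPARA. FABP1 (ENSG00000163586, chromosome 2, 88122982 to 88128116, minus strand, GRCh38) lay at 59.0, 55.8 and 57.7 CPM in the controls and at 72.4, 72.6 and 78.3 CPM in the shITGB5 libraries. Every shITGB5 library was well above every control. The mean went from 57.5 CPM ± 1.62 to 74.4 CPM ± 3.33 (SD, n = 3 each), or 0.37 on the log2 scale (SE 0.049, edgeR adjusted p = 8.96e-10).

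PPARA, the fatty acid sensing nuclear receptor, lay at 35.9, 36.8 and 34.8 CPM in the controls and at 41.6, 42.1 and 37.2 CPM in the shITGB5 libraries. The groups did not overlap, but the third shITGB5 library was close to the controls. The difference was 12.3% (95% interval 2.91% to 22.6%) and did not pass the test (edgeR adjusted p = 0.0596), whereas without shITGB5 replicate 3 it did (0.0221).

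The promoters of members that rose are shown as sequence, so that these members can be compared in what lies before their starts. RefSeq (GRCh38.p14) gave promoters for 31 of the 40 members, 44 promoters in all, and for 6 of the 8 that rose (not ACAA1 and DECR2). The 250 bases before the RefSeq start were searched on both strands for the GC box GGGCGG, the CCAAT box, the TATA box TATAAA and the nuclear receptor half-site AGGTCA. These starts differ from the gene limits used for the counts: the ECI1 window lies wholly inside those limits, and the FABP1, ACAT1 and CPT1A windows shown lie partly inside them. Shown are FABP1 (chr2:88128063-88128312, minus strand), which had the largest rise, ECI1 (chr16:2251588-2251837, minus strand), ACAT1 (chr11:108121317-108121566, plus strand) and CPT1A (chr11:68844278-68844527, minus strand), 5′ to 3′, with matches in capitals; capitals that run on are overlapping matches.
FABP1: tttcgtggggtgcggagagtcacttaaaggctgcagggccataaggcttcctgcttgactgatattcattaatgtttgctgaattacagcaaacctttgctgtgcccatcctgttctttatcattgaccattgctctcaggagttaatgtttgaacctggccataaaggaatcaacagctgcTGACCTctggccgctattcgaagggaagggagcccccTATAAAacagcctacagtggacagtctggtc
ECI1: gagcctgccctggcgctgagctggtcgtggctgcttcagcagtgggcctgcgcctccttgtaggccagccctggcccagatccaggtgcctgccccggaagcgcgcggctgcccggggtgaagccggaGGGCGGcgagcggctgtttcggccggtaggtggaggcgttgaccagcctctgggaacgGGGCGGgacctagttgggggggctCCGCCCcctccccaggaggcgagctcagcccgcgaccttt
ACAT1: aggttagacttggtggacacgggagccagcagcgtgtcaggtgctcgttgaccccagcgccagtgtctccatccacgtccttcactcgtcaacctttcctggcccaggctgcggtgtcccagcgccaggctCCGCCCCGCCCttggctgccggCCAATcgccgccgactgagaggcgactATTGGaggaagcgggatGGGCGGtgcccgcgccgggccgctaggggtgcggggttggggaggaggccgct
CPT1A: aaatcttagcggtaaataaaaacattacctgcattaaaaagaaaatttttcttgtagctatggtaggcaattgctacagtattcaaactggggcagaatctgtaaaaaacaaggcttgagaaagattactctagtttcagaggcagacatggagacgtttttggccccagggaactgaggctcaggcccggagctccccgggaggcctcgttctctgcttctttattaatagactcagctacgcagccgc

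Of these 4 promoters, ECI1 and ACAT1 were alike in GC boxes and G or C content, and FABP1 and CPT1A differed from them. The FABP1 promoter held 1 TATAAA and 1 AGGTCA (as its reverse complement, TGACCT), no GC box, and 48.0% G or C. ECI1 held 3 GC boxes at 72.8% G or C, and this ACAT1 promoter held 3 GC boxes and 2 CCAAT boxes at 69.2%. The other ACAT1 promoter, not shown, held none of the 4 motifs at 73.6% G or C. CPT1A held none of the 4 motifs at 44.4%. SCP2, which rose and is not shown, had promoters with 2 and 0 GC boxes (62.4% and 42.8% G or C). ETFB, also not shown, had 1 GC box in each promoter (67.2% and 47.6%), and 2 CCAAT boxes in the first of these. Among the 44 member promoters, 31 (70.5%) held GGGCGG, beside 42.6% of all 35116 promoters. The 35116 were not limited to genes tested here, whereas 39 of the 40 members were tested, so these shares are not like for like. The median G or C content was 65.6% for the members and 58.0% for all promoters. CCAAT was in 7 (15.9%, beside 32.0%), TATAAA in 2 (4.55%, beside 10.7%) and AGGTCA in 1, that of FABP1 (2.27%, beside 12.1%). GC boxes were in promoters of 4 of the 6 members that rose and of 22 of the other 25. A match is a string of letters in this window, and binding was not measured.

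**Figure D3:**
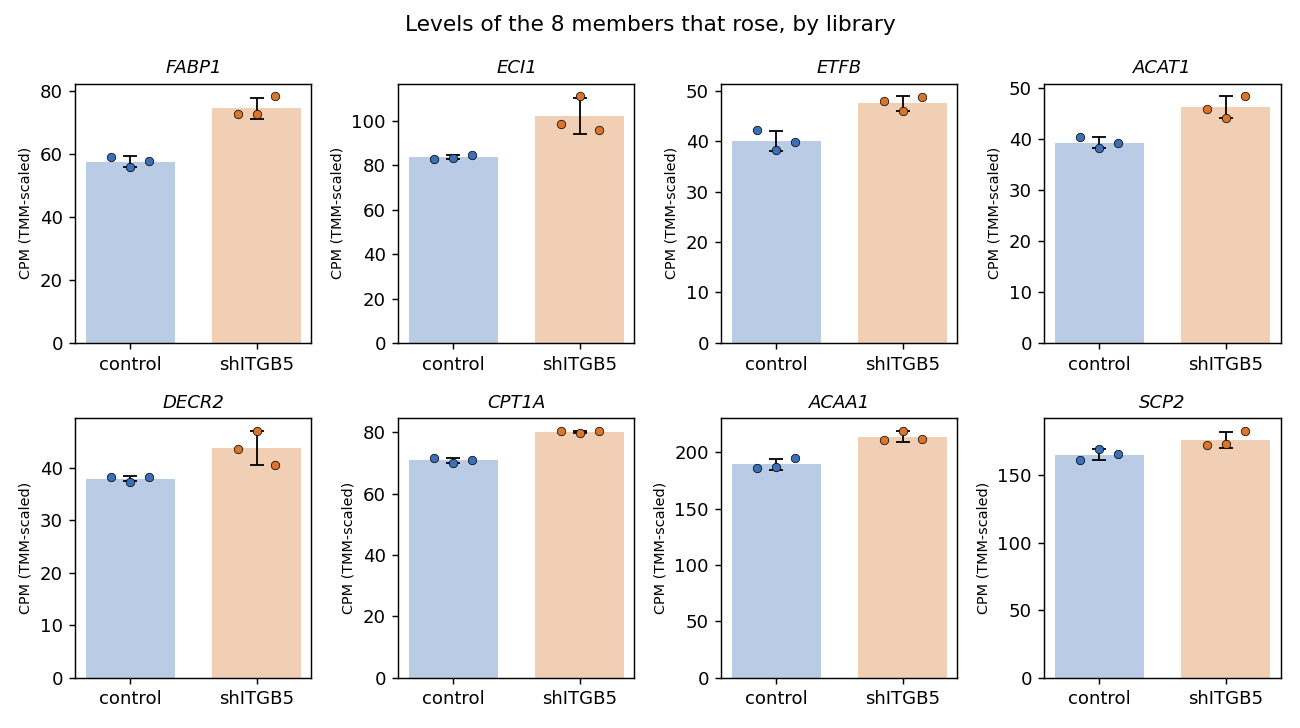
Levels of the 8 members that rose in CPM (y axis, from 0), with 1 point per library, bars at the mean and error bars of 1 SD for 3 control (blue) and 3 shITGB5 (orange) libraries. In each panel all 3 shITGB5 points lie above the 3 control points, with the widest gap for FABP1 and the narrowest for SCP2, relative to their levels.

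Of the carnitine shuttle, the entry step rose and the later steps did not pass, and the difference between them was not tested. CPT1A, the outer membrane carnitine palmitoyltransferase that commits long-chain fatty acids to mitochondrial oxidation, lay at 71.5, 70.0 and 71.1 CPM in the controls and at 80.5, 79.8 and 80.3 CPM in the shITGB5 libraries. Both groups were tight and far apart relative to their spread. The rise was 13.1% (95% interval 6.24% to 20.5%, edgeR adjusted p = 0.00226). SLC25A20, the carrier that moves acylcarnitine across the inner membrane, lay at 42.5 to 45.1 CPM in the controls and 45.8 to 48.8 CPM in the shITGB5 libraries (9.71% higher, edgeR adjusted p = 0.112). CPT2, which turns acylcarnitine back into acyl-CoA in the matrix, was 13.2% higher with an interval of 0.0736% to 28.1% (adjusted p = 0.192), and its groups overlapped. CPT2 shares 99 exon bases with C1orf123 on the opposite strand, which had 137% of the CPT2 count. CRAT and CROT, the short-chain and peroxisomal carnitine acyltransferases, lay 0.48% and 0.311% above the controls, with intervals of -5.92% to 7.31% and -7.39% to 8.65%. CRAT shares 75 exon bases with the opposite-strand gene PTPA, which had 274% of its count.

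None of the 5 acyl-CoA dehydrogenases, which catalyse the first step of the mitochondrial cycle, passed the test. ACADVL, for very long chains and the most abundant of them per kilobase, lay at 273, 268 and 271 CPM in the controls and 264, 256 and 271 CPM in the shITGB5 libraries. Its groups overlapped (change -2.57%, edgeR adjusted p = 0.461). ACADM, for medium chains, was the lowest member relative to its controls: 52.2, 53.1 and 50.9 CPM against 48.9, 44.0 and 49.4 CPM, without overlap (change -8.85%, 95% interval -15.6% to -1.56%, edgeR adjusted p = 0.0974). It shares 157 exon bases with RABGGTB on the same strand, which had 188% of the ACADM count and did not pass either. ACADS, for short chains, ACADSB, for branched short chains, and ACAD9, also an assembly factor of complex I, had changes between -0.735% and 3.17%, with overlapping groups.

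Of the electron transfer flavoprotein, which collects electrons from the acyl-CoA dehydrogenases, the beta subunit rose and the alpha subunit did not pass. ETFB lay at 42.2, 38.2 and 39.9 CPM in the controls and at 47.9, 45.9 and 48.7 CPM in the shITGB5 libraries, with no overlap (18.5% higher, 95% interval 9.22% to 28.5%, edgeR adjusted p = 0.00106). ETFA lay at 174, 163 and 168 CPM in the controls and at 172, 165 and 172 CPM in the shITGB5 libraries, and the groups overlapped (1.07% higher, 95% interval -3.50% to 5.86%). The subunits form a heterodimer, and their CPM ratio was compared after the values of both had been seen. It therefore gives no support apart from those values. ETFB to ETFA was 0.243, 0.235 and 0.238 in the controls and 0.279, 0.278 and 0.283 in the shITGB5 libraries. The ratio was higher in 3 of 3 libraries, and the exact two-sided permutation test gave p = 0.1, the smallest it can give (0.167 adjusted over 5 such pairs). ETFDH, which hands the electrons on to ubiquinone, was at 17.9 to 19.4 CPM in the controls and 17.2 to 19.0 CPM in the shITGB5 libraries. It shares 490 exon bases with the opposite-strand gene PPID, which had 238% of its count.

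The enzymes of the later mitochondrial steps did not pass. ECHS1, the short-chain enoyl-CoA hydratase, lay at 149, 145 and 141 CPM in the controls and at 157, 153 and 147 CPM in the shITGB5 libraries, with overlapping groups (4.94% higher, edgeR adjusted p = 0.199). HADHA and HADHB, the alpha and beta subunits of the mitochondrial trifunctional protein, were both slightly lower. HADHA lay at 155, 161 and 158 CPM in the controls and 155, 151 and 145 CPM in the shITGB5 libraries with overlapping groups (change -4.86%, edgeR adjusted p = 0.171). HADHB lay at 106, 102 and 102 CPM in the controls and 100.4, 96.4 and 97.2 CPM in the shITGB5 libraries, without overlap (change -5.50%, edgeR adjusted p = 0.188). Their ratio was 1.52 ± 0.0616 in the controls and 1.53 ± 0.0385 in the shITGB5 group (SD, n = 3 each, exact permutation p = 0.8), so that no difference between the subunits was seen beyond the spread. HADH, the short-chain hydroxyacyl-CoA dehydrogenase, and ACAA2, the mitochondrial thiolase, were 1.09% and 4.06% higher with overlapping groups.

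Unsaturated fatty acids need auxiliary enzymes that move or remove their double bonds, and here 1 gene for each organelle rose. ECI1, the mitochondrial enoyl-CoA isomerase (ENSG00000167969, chromosome 16, 2239395 to 2252300), lay at 83.1, 83.4 and 84.8 CPM in the controls and at 98.8, 111 and 96.2 CPM in the shITGB5 libraries. All 3 shITGB5 libraries were above the controls, and the second stood highest (21.8% higher, 95% interval 14.7% to 29.3%, edgeR adjusted p = 1.21e-07). ECI2, an isomerase found in peroxisomes and mitochondria, lay at 23.1 to 25.6 CPM in the controls and 22.6 to 26.1 CPM in the shITGB5 libraries. DECR2, the peroxisomal dienoyl-CoA reductase, lay at 38.1, 37.3 and 38.2 CPM in the controls and at 43.5, 47.0 and 40.6 CPM in the shITGB5 libraries. The groups did not overlap (15.3% higher, 95% interval 5.92% to 25.5%, edgeR adjusted p = 0.0114), but without shITGB5 replicate 2, the highest, the adjusted p was 0.152. DECR2 also shares 572 exon bases (14.1%) with NME4, a gene on the same strand that had 193% of the DECR2 count and rose too (log2 change 0.13, edgeR adjusted p = 0.043). DECR1, the mitochondrial reductase, lay at 47.9 to 52.0 CPM in the controls and 52.6 to 55.5 CPM in the shITGB5 libraries without overlap (8.51% higher, edgeR adjusted p = 0.147). The ratio of ECI1 to ECI2 was 3.46 ± 0.141 against 4.16 ± 0.662 (exact permutation p = 0.1, 0.167 adjusted) and that of DECR1 to DECR2 1.31 ± 0.0543 against 1.24 ± 0.104 (exact permutation p = 0.5; SD, n = 3 each). These pairs too were chosen after the values were seen.

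Of the ketone body genes, ACAT1 rose. ACAT1, the mitochondrial acetoacetyl-CoA thiolase that acts in both the making and the use of ketone bodies, lay at 40.3, 38.3 and 39.3 CPM in the controls and at 45.9, 44.1 and 48.4 CPM in the shITGB5 libraries, with no overlap (17.5% higher, 95% interval 8.23% to 27.6%, edgeR adjusted p = 0.00227). OXCT1, which peripheral tissues use to burn ketone bodies and which normal hepatocytes largely lack, was low in both groups, at 7.57 to 9.94 CPM in the controls and 7.52 to 8.41 CPM in the shITGB5 libraries. BDH1, which interconverts acetoacetate and beta-hydroxybutyrate, was lower still, at 0.127 to 0.745 CPM in the controls and 0.398 to 0.726 CPM in the shITGB5 libraries, or 2 counts in the lowest library, and was not tested.

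In the peroxisomal pathway genes of the thiolase step rose and those of the earlier steps did not pass. The difference between the steps was not tested. ACAA1, the peroxisomal thiolase (ENSG00000060971, chromosome 3, 38103129 to 38137242), lay at 186, 187 and 195 CPM in the controls and at 211, 219 and 212 CPM in the shITGB5 libraries. The groups were well apart (13.03% higher, 95% interval 8.24% to 18.04%, edgeR adjusted p = 4.89e-06). SCP2, whose longer product SCPx is the thiolase for branched chains and bile acid precursors, lay at 161, 169.8 and 166 CPM in the controls and at 173, 173 and 183 CPM in the shITGB5 libraries. Its rise of 6.61% (95% interval 1.80% to 11.6%) was close to the threshold (edgeR adjusted p = 0.0461). It passed in 5 of 14 alternatives, and missed the threshold without shcontrol replicate 1 (0.262), without shcontrol replicate 3 (0.11) and without shITGB5 replicate 3 (0.326), and also with DESeq2 (0.0538). In the ratio of ACAA1 to its mitochondrial counterpart ACAA2, the controls lay at 2.26 ± 0.0900 and the shITGB5 libraries at 2.45 ± 0.0677 (SD, n = 3 each, exact permutation p = 0.1, 0.167 adjusted). This pair was chosen after the values were seen, so the ratio gives no support apart from them.

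ABCD3, which imports branched and long-chain acyl groups into peroxisomes, was abundant and nearly equal, at 197, 195 and 192 CPM in the controls and 197, 194 and 191 CPM in the shITGB5 libraries (95% interval of the difference -4.43% to 4.26%). HSD17B4, the D-bifunctional protein of the hydration and dehydrogenation steps, lay at 252, 255 and 248 CPM in the controls and 247, 237 and 248 CPM in the shITGB5 libraries. The highest shITGB5 library, at 247.7 CPM, lay just under the lowest control, at 248.1 CPM (change -3.12%, edgeR adjusted p = 0.348). EHHADH, the L-bifunctional protein and a classical PPARA target, was at 11.9 to 13.4 CPM in the controls and 12.2 to 13.3 CPM in the shITGB5 libraries. Of the oxidases, ACOX3 was at 18.1 to 21.3 CPM in the controls and 20.7 to 23.1 CPM in the shITGB5 libraries (14.7% higher, edgeR adjusted p = 0.111), and passed without shcontrol replicate 1 (0.0493). ACOX2, the branched-chain and bile acid oxidase, had few counts: 1.09, 1.31 and 0.886 CPM in the controls and 1.28, 1.63 and 2.78 CPM in the shITGB5 libraries, with overlap (log2 change 0.79, SE 0.329, edgeR adjusted p = 0.097). It passed without shITGB5 replicate 1 (0.0393), and without shITGB5 replicate 3, the highest, its log2 change was 0.40.

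The peroxins, which build the organelle, did not pass. PEX5, the receptor that brings enzymes with a C-terminal targeting signal to the peroxisome, lay at 64.3, 61.0 and 63.9 CPM in the controls and at 69.7, 63.1 and 73.9 CPM in the shITGB5 libraries. The second shITGB5 library fell within the controls (9.35% higher, edgeR adjusted p = 0.0693), and without it the adjusted p was 0.00608. PEX14, the docking factor for PEX5, lay at 19.1 to 23.1 CPM in the controls and 19.0 to 20.8 CPM in the shITGB5 libraries. It shares 204 exon bases with the opposite-strand gene DFFA, which had 323% of its count. PEX11A, which promotes peroxisome division, was low, at 3.61 to 4.69 CPM in the controls and 4.49 to 5.74 CPM in the shITGB5 libraries, with overlap.

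The acyl-CoA thioesterases, which release free fatty acids from CoA, did not pass, and their groups overlapped. The mitochondrial ACOT2 was at 12.03 to 15.6 CPM in the controls and 13.2 to 14.9 CPM in the shITGB5 libraries, the peroxisomal ACOT8 at 21.5 to 23.0 CPM and 21.7 to 25.2 CPM, and the cytosolic ACOT1 at 0.688 to 0.886 CPM and 0.501 to 1.09 CPM. ACOT8 shares 1489 exon bases (35.3%) with the opposite-strand gene SNX21, which had 27.0% of its count. ACOT1 and ACOT2 are neighbouring near-copies: 53.1% of the 50-base words of the ACOT1 transcripts also occur in ACOT2, so the split of reads between them is uncertain.

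Compared per kilobase of annotated exon (FPKM), ECHS1 led in both groups, at a mean of 89.6 in the controls and 94.1 in the shITGB5 libraries, in the 97.6th percentile of all genes tested. ACADVL followed at 55.6 and 54.2 FPKM, then HADHA at 36.01 and 34.3 and ETFA at 33.4 and 33.8 FPKM. Below them ACAA1, ECI1, ABCD3, HADHB, HSD17B4 and FABP1 lay, in that order, between 26.6 and 23.3 FPKM in the controls. The control libraries of neighbours among these 6 overlapped, except between ABCD3 and HADHB, and the 4 above them did not overlap with any neighbour. In the shITGB5 libraries ECI1 (31.6), FABP1 (30.1) and ACAA1 (30.1 FPKM) stood above ABCD3 (25.6), HADHB (22.9) and HSD17B4 (22.9 FPKM). The control level of PPARA itself was 2.71 FPKM and that of CPT2 1.68 FPKM, while ACOT1, ACOX2 and BDH1 were under 1 FPKM. The lengths cover every annotated exon, which lowers the FPKM of genes with long, little-used exons.

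**Figure D4:**
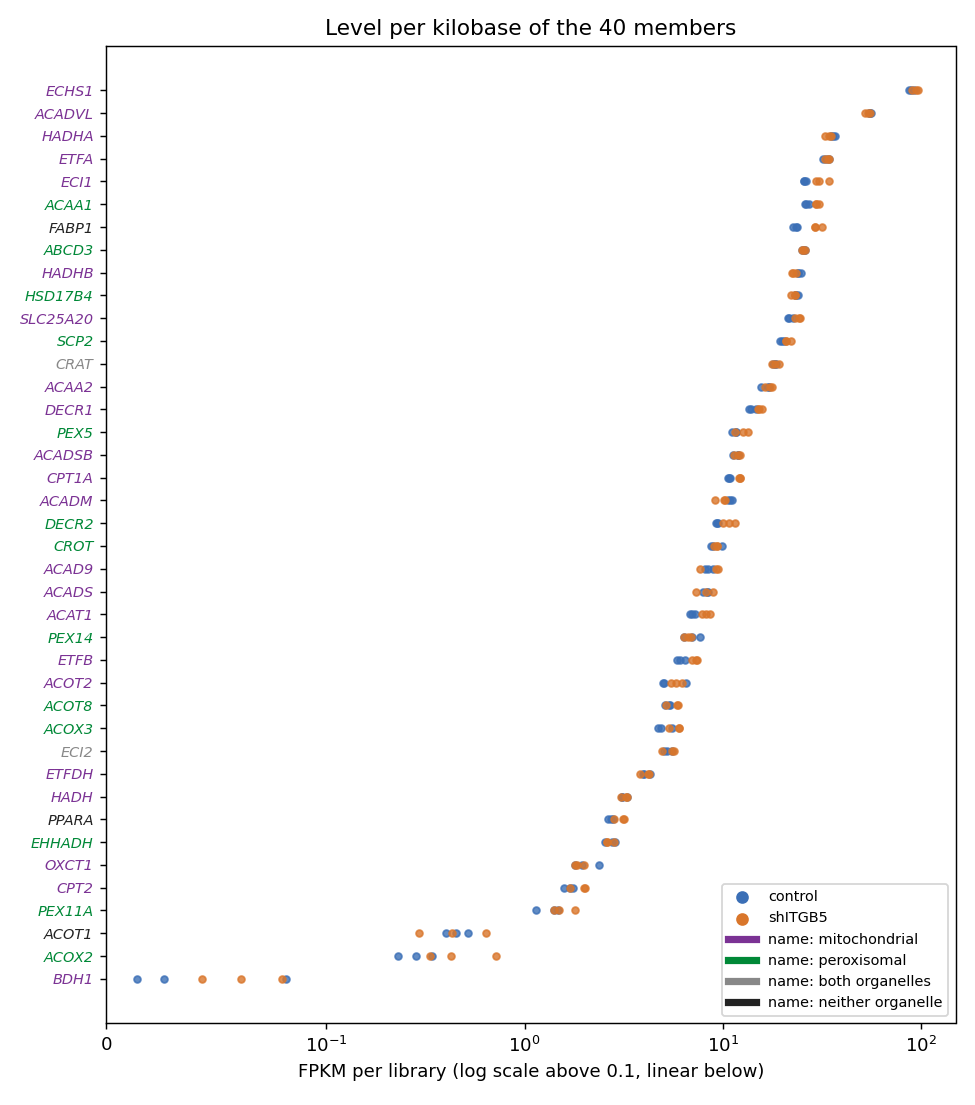
Level of the 40 members in FPKM (x axis, log scale above 0.1 and linear below), 1 point per library, ordered by the mean; name colours give the organelle. Levels run from ECHS1, at 89.6 FPKM in the controls, down to BDH1, and the control and shITGB5 points of most members overlap.

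Other genes of these pathways were called in shares on both sides of the 15.5% of all genes tested. A list of 27 further fatty acid and ketone genes was set beside the mitochondrial members, without sorting by where the protein acts. Of these, 26 were tested, 2 rose, 1 fell (11.5% called, below the share of all genes) and the median log2 change was 0.03. ACSL3, an acyl-CoA synthetase, rose (0.18) and the carnitine-related carrier SLC25A29 fell (-0.34, edgeR adjusted p = 0.0462). Of 35 further peroxisomal genes, 1 rose, 1 fell (5.71% called, also below it) and the median was -0.01. The peroxisomal protease LONP2 rose (0.15). IDH1, the NADP-dependent isocitrate dehydrogenase of cytosol and peroxisome, went from 744 CPM ± 9.08 to 649 CPM ± 19.6 (SD, n = 3 each) and fell (-0.20, edgeR adjusted p = 1.49e-11). Of 18 partners, relatives and targets of PPARA, 16 were tested, 4 rose, 1 fell (31.2% called, above it) and the median was 0.06. The nuclear receptors ESRRA (0.30) and PPARG (0.23) rose most, and CREB3L3, a liver transcription factor that works with PPARA in fasting, fell (-0.20, edgeR adjusted p = 1.29e-05).

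Sequence words in 3′ untranslated regions were also counted, since earlier work on these libraries found AGACCAA or its shifted form GACCAAA to be common among genes that fell, and TCGGAGA or CGGAGAA among genes that rose. In GENCODE 29 principal transcripts the first pair was in 15.8% of 13339 genes tested, in 34.5% of those that fell and in 10.4% of those that rose. Among the 39 members tested it was in 3 (CPT2, ETFDH and PPARA), none of which passed the test. The second pair was in 3.34% of genes, in 8.74% of those that rose and in 4 members (CPT1A, ACADSB, PEX11A and PPARA), of which CPT1A rose. The other 7 members that rose held neither pair. Both pairs of words came from these same libraries, so their shares among the called genes repeat the earlier finding and do not test it.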

How the data were processed

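RNA had been sequenced from total RNA with a directional library kit, per the labels' protocols. The table that the authors deposited carries FPKM in its name, yet 100% of its values are whole numbers, and it was analysed as raw counts per gene. Which aligner, counter and strand setting made them is not given in the sources used here, so overlapping genes on opposite strands cannot be told apart. Gene positions of all 40 members equalled those of GENCODE 29 (GRCh38), and gene lengths equalled the union of their exons.

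Genes were kept by filterByExpr, scaled by TMM and tested with edgeR 4.0.16 (R 4.3.3; robust quasi-likelihood fit, shITGB5 against shcontrol, no covariate), with two-sided p-values adjusted by Benjamini-Hochberg over the 16577 genes kept and a threshold of 0.05. This step was tested on simulated data. Levels are CPM with TMM factors, FPKM is CPM per kilobase, and intervals are 95% intervals of the fit. Totals of 15777922 to 18011313 counts put the limit of a count of 0 (3 counts) at 0.167 to 0.190 CPM, for counting error only. Every member is named, those past the test or among the 10 highest by FPKM with the value of each library. Of each further list up to 3 genes past the threshold with the largest change are named. The values of 1 gene of these lists are not reported here. Subunit and counterpart ratios were chosen after the values were seen. The members and lists were chosen with earlier results of these data known. Alternatives were RLE factors, library totals, DESeq2 1.42.0, other filters, a replicate block, a fold minimum and leaving out each library. Promoter sequences are from RefSeq (GRCh38.p14), and protein sequences were not used here.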

Additional observations from a re-analysis of the deposited data

How the results depend on the processing

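The 8 rises became 7 with library totals only, with DESeq2, without a filter on low counts and in edgeR without robust fitting (an alternative chosen after seeing the data), through the loss of SCP2 each time, and stayed at 8 with RLE factors and at a mean of at least 1 CPM. Leaving out 1 library gave 7 to 9 rises, 4 of them mitochondrial each time and 2 to 4 peroxisomal. No fall was called in any of these. FABP1, ECI1, ETFB, ACAT1, CPT1A and ACAA1 passed in each alternative except the minimum fold of 1.2. That fold left 148 of 2569 genes and 0 rises among the members (0 mitochondrial, 0 peroxisomal). The test asks for evidence that a change exceeds 1.2-fold, and an estimate above 1.2 is not enough. FABP1 (1.295-fold), ECI1 (1.218-fold) and the low-count ACOX2 (1.72-fold) had such estimates and missed it. ITGB5, at a log2 change of -0.2659 (1.202-fold), missed it as well. Deviations of libraries with the same number were not positively correlated (-0.0247, -0.0863 and -0.126 over 10550 genes), so the number was not taken as a pairing. With the replicate block edgeR called 2499 genes and 7 members, again without SCP2. Some members that passed no test changed sign: without a filter on low counts ETFDH was 0.0045 and ABCD3 0.0044 on the log2 scale. Leaving out 1 library moved these log2 changes over a range that included 0: ACADS -0.0772 to 0.0597, ACADSB -0.0095 to 0.0442, ACAD9 -0.0117 to 0.1342, HADH -0.0067 to 0.0457, ETFA -0.0098 to 0.0400, ETFDH -0.0290 to 0.0405, ECI2 -0.0078 to 0.0922, CRAT -0.0278 to 0.0350, ABCD3 -0.0166 to 0.0074, EHHADH -0.0735 to 0.0091, CROT -0.0299 to 0.0574 and ACOT1 -0.3335 to 0.2174. ACOT1 gave no value at a mean of at least 1 CPM. The cause was not tested. Below about 10 CPM (OXCT1, PEX11A, ACOX2, ACOT1 and BDH1) the counts limit what can be seen.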
